A study of Mus musculus with 15 samples.

Results

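Hippocampal transcriptomes of DHA-treated Tg2576 mice were compared with those of vehicle-treated wild-type (WT) littermates, to ask how far the treated amyloid model stood from the untreated wild type. The members were taken from the sample labels and comprised 7 of the 15 mice of the series, 3 Tg2576 DHA mice and 4 WT vehicle mice. Tg2576 mice (labelled Tg2576 +/+) overexpress human amyloid precursor protein with the Swedish mutation under the prion promoter, and WT mice (labelled Tg2576 -/-) are their negative littermates. All were females, given as 18 to 20 months old in the study's methods and as somewhat older in its discussion. Mice of the study went through fear conditioning and a water maze, and whether the sequenced mice did is not stated. DHA (docosahexaenoic acid, an omega-3 fatty acid) was given by daily intragastric administration at 450 mg/kg for 5 weeks in sesame oil, and vehicle mice received the oil. The 4 Tg2576 vehicle and 4 WT DHA mice are set beside this comparison where they show which of the 2 factors a difference moves with. Genotype and DHA change together between Tg2576 DHA and WT vehicle mice, so their shares cannot be told apart in that comparison.

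The transgene raises the precursor from which amyloid-beta is cut, and in old Tg2576 mice the peptide gathers in plaques. Microglia around plaques switch on genes for phagocytosis, lysosomes and lipid handling, and nearby astrocytes raise the intermediate filament protein GFAP. DHA is a major fatty acid of neuronal membranes, and cholesterol, the other main membrane lipid, is made within the brain by the mevalonate pathway.

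Each mouse is 1 library, with 21538455 to 46596489 counts in the WT vehicle group and 25645977 to 33662464 in the Tg2576 DHA group. Levels are counts scaled to the library total (CPM) after TMM scaling. Each of 19536 genes was tested in edgeR (quasi-likelihood, both directions), and a gene was called at an unadjusted p under 0.01. Beside single genes the p adjusted over all genes tested is given. Of the genes tested, 312 were called (1.6%), 142 higher in Tg2576 DHA mice (0.727%) and 170 lower (0.87%). If no gene differed, 195 would be expected to pass this threshold. After Benjamini-Hochberg adjustment 0 genes (0%) passed 0.05 with edgeR, where 1236 had an unadjusted p under 0.05, whereas DESeq2 gave 40 and limma-voom 0. In 266 of the called genes the groups did not overlap. Over all genes tested, every Tg2576 DHA mouse lay above every WT vehicle mouse in 675 (3.46%) and below in 856 (4.38%). Most changes were small, since 166 of the called genes differed by under 1.5-fold.

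Distances between whole profiles (root mean square difference of log2 CPM) had medians of 0.624 between Tg2576 DHA and WT vehicle mice and 0.586 among the WT vehicle mice. The median was 0.678 among the Tg2576 DHA mice themselves and 0.72 among the Tg2576 vehicle mice, so by these medians neither Tg2576 group lay farther from the WT vehicle mice than its own mice did from each other. Tg2576 vehicle mice lay at a median of 0.668 from the WT vehicle mice, where 604 genes were called (3.09%), 226 higher (1.16%) and 378 lower (1.93%). Both comparisons use the same WT vehicle mice. They differ in the number of Tg2576 mice, 4 under vehicle and 3 under DHA. Depth differed too, at 17372864 to 30152880 counts in Tg2576 vehicle and 25645977 to 33662464 in Tg2576 DHA mice. The part of number and depth in these distances and counts was not tested. The direct comparison of Tg2576 DHA with Tg2576 vehicle mice called 69 genes (0.353%), fewer than the 195 expected if no gene differed. The count of 69 rested on Tg2576 DHA replicate 1 and Tg2576 vehicle replicate 2, without which it was 312 and 250 genes. Leaving out Tg2576 vehicle replicate 1 gave 122. The Tg2576 vehicle against WT vehicle count ranged from 312, without WT vehicle replicate 2, to 965, without Tg2576 vehicle replicate 1, and it was 377, 399 and 400 without WT vehicle replicate 1 and Tg2576 vehicle replicates 3 and 4. Without WT vehicle replicate 2 the Tg2576 DHA against WT vehicle count fell from 312 to 171 genes. The split by direction changed with the setting, and 198 of 325 were higher without Tg2576 DHA replicate 1, 181 of 300 with library sizes unscaled by TMM, 162 of 292 with only the 2 groups fitted, and 201 of 619 with 1 surrogate variable. Counting used no strand setting known here, so overlapping and antisense genes are uncertain.

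App, the gene of the transgene, had the lowest p. It lies at chr16:84949685-85173766 (GRCm38), and its counts do not separate the human transgene from the mouse gene. App measured 1651, 1787, 1763 and 1608 CPM in the WT vehicle mice and 2286, 2553 and 2787 CPM in the Tg2576 DHA mice. Each Tg2576 DHA mouse was above every WT vehicle mouse, and the levels of the Tg2576 vehicle mice were 2615, 2365, 2313 and 2076 CPM. Its log2 fold change was 0.58 ± 0.09 (SE), with an adjusted p of 0.0899 in the edgeR test. Between the DHA and vehicle Tg2576 mice App differed by 0.12 ± 0.09 on the log2 scale (adjusted p = 0.999), which does not pass the threshold. Of the 17 genes of the precursor and its processing, 1 other was called, Ece1, a metalloprotease that cleaves amyloid-beta, at a log2 fold change of -0.27. Its call was lost in 12 of 25 alternatives, which were library sizes unscaled by TMM (log2 -0.24), no low-count filter, only the 2 groups fitted, and 9 fits without 1 mouse, with a log2 fold change of -0.24 without Tg2576 DHA replicate 3. Over the 35 ways to split these 7 mice into 3 and 4, the exact two-sided permutation test on the absolute mean difference gave App a p of 0.0286, the smallest it can give.

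**Figure D1:**
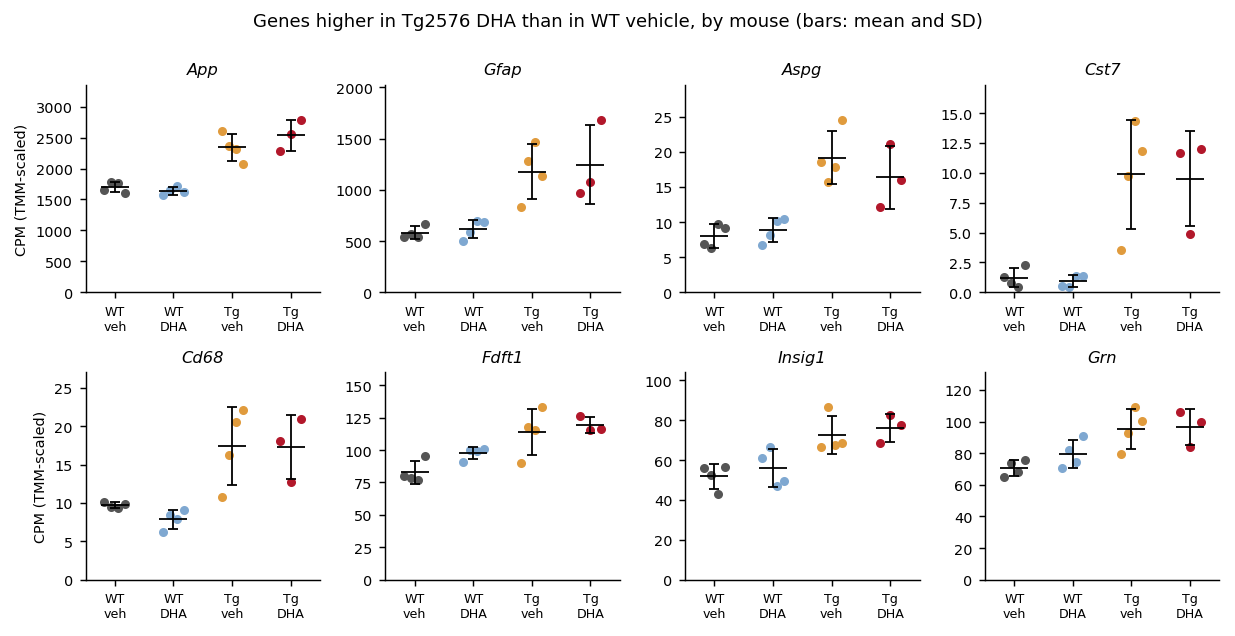
Levels (CPM after TMM scaling, each axis from 0) of 8 genes called higher in Tg2576 DHA than in WT vehicle mice, with 1 point per mouse and the mean and SD of each of the 4 groups. App and Gfap are high in both Tg2576 groups, while the Fdft1 mean of the WT DHA mice, 97.6 CPM, lies between the WT vehicle mean of 82.7 and the Tg2576 DHA mean of 119 CPM.

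Of 22 reactive astrocyte genes tested, 6 were called higher in the treated model than in the WT vehicle mice and 0 lower. The count was 3 without Tg2576 DHA replicate 3, and 0.727% of all genes tested were called higher. The list had a median log2 fold change of 0.71 against -0.0043 over all genes tested. Gfap, the astrocyte filament protein, measured 543, 568, 544 and 670.4 CPM in the WT vehicle mice. It measured 969.5, 1079 and 1686 CPM in the Tg2576 DHA mice, so the groups did not overlap and the third treated mouse was the highest. Its fold was 2.14 (log2 1.10 ± 0.19, adjusted p = 0.152 in edgeR). Tg2576 DHA and Tg2576 vehicle mice differed in Gfap by 0.08 ± 0.19 (adjusted p = 0.999), with levels of 830.4, 1283, 1465 and 1135 CPM under vehicle. The WT DHA mean was 618 CPM, and against those mice the Tg2576 DHA log2 fold change was 1.01.

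Aspg, an asparaginase, measured 6.91, 6.29, 9.76 and 9.18 CPM in the WT vehicle mice and 12.2, 21.1 and 15.9 CPM in the treated mice. Every treated mouse was above the controls, and the log2 fold change was 1.03 ± 0.21 (adjusted p = 0.322). Lcn2 encodes lipocalin 2, a secreted protein of acute reactive astrocytes. Lcn2 measured 0.301, 1.35, 0.743 and 0.542 CPM against 2.38, 2.84 and 4.34 CPM, again without overlap, with a log2 fold change of 2.17 ± 0.49 at very low levels (adjusted p = 0.383). The other members called were Serpina3n, Ggta1 and Vim, at log2 fold changes of 0.72, 0.85 and 0.77. Under vehicle the same list had 8 members called higher and a median of 0.58. Between the 2 Tg2576 groups 0 of the 22 were called, and the median difference was -0.0066. The count of 6 fell to 3 without Tg2576 DHA replicate 3. The 14 astrocyte identity genes, such as the glutamate transporter gene Slc1a2, had 0 called and 1 with a p under 0.05, at a median of -0.014. In bulk tissue, more cells of a type and more RNA per cell cannot be told apart.

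Plaque-associated microglial genes were called higher in 9 of 30 (0.727% of all genes tested), and 0 were lower, at a median of 0.62. Cst7, which encodes the cathepsin inhibitor cystatin F, rose most among them. Cst7 measured 1.25, 0.774, 0.473 and 2.29 CPM in the WT vehicle mice and 11.6, 4.91 and 12 CPM in the Tg2576 DHA mice. The lowest treated mouse lay above the highest control, at a fold of 7.77 (log2 2.96 ± 0.54, adjusted p = 0.201). Its levels under vehicle were 3.58, 9.73, 14.3 and 11.8 CPM, and the treated mice differed from these by -0.06 ± 0.50 (adjusted p = 0.999).

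Cd68, a lysosomal membrane protein of phagocytes, measured 10.1, 9.43, 9.29 and 9.84 CPM against 18, 12.8 and 21 CPM. The controls were tightly grouped and all 3 treated mice exceeded them, at a log2 fold change of 0.83 ± 0.21 (adjusted p = 0.473). Hcar2, a receptor for hydroxybutyrate and nicotinic acid, measured 0.517, 0.58, 0.338 and 0.241 CPM against 1.51, 0.591 and 1.86 CPM, a log2 fold change of 1.65 ± 0.47. The second treated mouse exceeded the highest control by little, and without Tg2576 DHA replicate 3 the call was lost (log2 1.32). Trem2, the receptor through which microglia sense plaque lipids, measured 12.6, 18.7, 15.5 and 14.7 CPM in the controls and 37.6, 13.6 and 31.6 CPM in the treated mice. Treated mouse 2 lay within the controls and the others above them, and Trem2 was not called (log2 0.84 ± 0.45, adjusted p = 0.85). Between the 2 Tg2576 groups 0 of the 30 genes were called and the median difference was 0.0052. The count of 9 depended on single mice, and was 2 without Tg2576 DHA replicate 3 and 5 without replicate 1 of that group. It was 5, 4 and 5 without WT vehicle replicates 1, 2 and 3. Over the members with at least 10 counts in every mouse, 7 were called and the list median was 0.36.

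Of 19 homeostatic microglial genes 3 were called higher (0.727% of all genes tested) and 0 lower, at a median of 0.24. In this list 0 were called without Tg2576 DHA replicate 3 or without WT vehicle replicate 3. Gpr34, a receptor for lysophosphatidylserine, measured 5.43, 4.16, 3.18 and 5.24 CPM in controls and 7.63, 9.25 and 11.7 CPM in treated mice, without overlap (log2 1.08 ± 0.33, adjusted p = 0.578). Csf1r, the receptor for microglial growth factors, averaged 108 CPM in controls against 135 CPM in treated mice. Both calls were lost without Tg2576 DHA replicate 3, at log2 fold changes of 0.90 for Gpr34 and 0.21 for Csf1r, and without WT vehicle replicate 3, at 0.94 and 0.31. In all, Gpr34 lost its call in 5 of 25 alternatives and Csf1r in 11. Under vehicle 0 of these 19 genes were called, and the 2 Tg2576 groups differed by a median of 0.15 with 0 called.

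Lysosomal genes were called higher in 7 of 26 (0.727% of all genes tested) and lower in 0, at a median of 0.27. Grn encodes progranulin, a protein needed for lysosomal function. Its level was 64.7, 73.5, 68.3 and 75.8 CPM in the WT vehicle mice and 106, 83.7 and 99.6 CPM in the Tg2576 DHA mice, with no overlap (log2 0.45 ± 0.12, adjusted p = 0.506). Ctss, the microglial protease cathepsin S, measured 55.2, 65.7, 49.9 and 76.5 CPM against 94.8, 70.5 and 129 CPM. Here treated mouse 2 lay below the highest control, and the call (log2 0.67, adjusted p = 0.523) was lost without Tg2576 DHA replicate 3 (log2 0.42) or WT vehicle replicate 3 (log2 0.58). The list count was 2 without Tg2576 DHA replicate 3, and the median was 0.16 without Tg2576 DHA replicate 1.

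Complement genes were called higher in 3 of 16 (0.727% of all genes tested), at a median of 0.45. C1s1, a protease of the classical pathway, measured 0.84, 0.629, 0.507 and 0.632 CPM in the controls and 1.37, 1.95 and 1.51 CPM in the treated mice. Serping1, the inhibitor of that protease, measured 6.68, 5.61, 8.68 and 6.11 against 9.5, 13.4 and 10.4 CPM, and C3ar1, the receptor of the C3a fragment, 2.37, 2.13, 1.82 and 2.23 against 3.46, 4.37 and 4.96 CPM. In none of these 3 genes did the groups overlap, and the log2 fold changes were 1.29, 0.71 and 0.99. Serping1 lost its call without Tg2576 DHA replicate 2 (log2 0.56) or WT vehicle replicates 2 or 4 (0.64 and 0.67), and C3ar1 without Tg2576 DHA replicate 3 (0.87) or WT vehicle replicate 3 (0.92). C1s1 kept its call in every alternative.

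Other immune lists had higher medians with few or no calls, where 0.727% of all genes tested were called higher. The median was 0.50 for interferon-stimulated genes, 0.46 for antigen presentation and 0.52 for cytokines and chemokines. The cytokine median was 0.058 over the members with at least 10 counts in every mouse, and 0.30 without Tg2576 DHA replicate 3. Of 20 interferon-stimulated genes 1 was called, Bst2, a membrane protein that tethers viruses, at 5.75, 2.81, 7.53 and 4.81 CPM in controls and 8.85, 9.31 and 11.7 CPM in treated mice (adjusted p = 0.6). That call was lost without Tg2576 DHA replicate 2 or 3 and without WT vehicle replicate 1, 2 or 4, with a log2 fold change of 0.73 without WT vehicle replicate 2. Of 16 antigen presentation genes 0 were called by edgeR and 1 had a p under 0.05. That gene was B2m, the light chain of MHC class I, with 50.6, 56.6, 54.3 and 86.3 CPM against 78.3, 83.6 and 108 CPM (adjusted p = 0.634), and it passed in 7 of 25 alternatives, DESeq2 (log2 0.55) and the fit without WT vehicle replicate 4 (log2 0.74) among them. Reads shared between near-identical H2 genes make that family uncertain. Of 12 cytokine and chemokine genes 0 were called and 2 had a p under 0.05. Il1b, the interleukin 1 beta gene, measured 0.345, 0.387, 0.135 and 0.241 CPM in controls and 0.504, 0.709 and 0.542 CPM in treated mice, without overlap but not called (log2 1.08 ± 0.47). Tnf was below the count filter, with raw counts of 4, 2, 0 and 2 in the controls and 6, 4 and 2 in the treated mice.

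Cholesterol synthesis and uptake had the largest share of called members of all 43 lists. Of 19 genes tested, 11 were called higher (0.727% of all genes tested) and 0 lower. All 19 had a positive log2 fold change, and the median was 0.42. Under vehicle 4 of the 19 were called at a median of 0.27, and between the 2 Tg2576 groups 0 were called at a median of 0.12. The genes are driven by SREBP2, a transcription factor released when membrane sterol is low, which binds a short element in their promoters together with the CCAAT-binding factor NF-Y. Srebf2, its own gene, had a log2 fold change of 0.022.

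Promoters of 12 of the 19 genes were found by symbol in the RefSeq table used here (GRCm38.p6), 5 of them of called members. The 250 bases before each start were searched on both strands for TCACNCCAC, the core of the sterol element, and for CCAAT, read as its reverse complement ATTGG on the other strand. Their table entries were 14 promoters, of which 12 held CCAAT, compared with 33.8% of the 32851 promoters in the table. By gene, CCAAT was present in all 5 called members and in all 7 members not called, so it did not separate them. TCACNCCAC was found in 1 of the 14, that of Hmgcs1, and in 1.05% of all promoters. These matches describe the letters of this window only. Below are 3 called members, chosen as the gene with both motifs (Hmgcs1, plus strand, chr13:119690101-119690350), the member with the most CCAAT boxes (Mvk, plus strand, chr5:114444019-114444268) and the called member with 1 box (Insig1, plus strand, chr5:28071162-28071411). Capitals mark both motifs on either strand.
Hmgcs1: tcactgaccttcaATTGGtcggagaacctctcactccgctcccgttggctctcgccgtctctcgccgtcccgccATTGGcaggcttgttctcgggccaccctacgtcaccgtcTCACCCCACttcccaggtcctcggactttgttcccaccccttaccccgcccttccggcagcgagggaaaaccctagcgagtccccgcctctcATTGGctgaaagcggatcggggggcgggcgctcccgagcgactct
Mvk: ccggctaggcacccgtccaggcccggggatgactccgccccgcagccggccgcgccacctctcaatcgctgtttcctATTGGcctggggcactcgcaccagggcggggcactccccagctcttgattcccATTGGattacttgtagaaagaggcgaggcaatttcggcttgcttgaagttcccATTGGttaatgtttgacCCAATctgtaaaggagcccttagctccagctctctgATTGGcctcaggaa
Insig1: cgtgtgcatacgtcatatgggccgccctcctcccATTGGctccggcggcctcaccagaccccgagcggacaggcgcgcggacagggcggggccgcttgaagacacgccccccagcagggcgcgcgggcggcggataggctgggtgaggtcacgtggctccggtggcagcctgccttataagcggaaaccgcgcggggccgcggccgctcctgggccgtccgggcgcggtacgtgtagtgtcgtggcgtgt

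Fdft1 encodes squalene synthase, the enzyme that commits the pathway to sterols. Fdft1 measured 79.7, 78.7, 76.7 and 95.6 CPM in the WT vehicle mice and 126, 115 and 116 CPM in the Tg2576 DHA mice. The groups did not overlap, and the fourth control stood above the other 3 (log2 0.53 ± 0.11, adjusted p = 0.322). Insig1, the sterol sensor that holds SREBP in the endoplasmic reticulum, measured 56.1, 52.3, 43 and 56.5 CPM against 68.7, 82.5 and 77.8 CPM. All treated mice were above all controls (log2 0.55 ± 0.13, adjusted p = 0.434). Stard4, a carrier of cholesterol between membranes, measured 26.1, 28.1, 16.8 and 24.8 CPM against 31.7, 43.7 and 40.2 CPM, also without overlap (log2 0.69 ± 0.16, adjusted p = 0.383). Against the Tg2576 vehicle mice Stard4 was higher by 0.35 ± 0.16 (adjusted p = 0.999), which does not pass 0.01, and the corresponding difference of Fdft1 was 0.06 (adjusted p = 0.999).

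Other called members were Sqle, Fdps, Hmgcs1, Mvk, Nsdhl and Msmo1, at log2 fold changes from 0.36 (Mvk) to 0.63 (Fdps). Sqle, the squalene epoxidase gene, had a log2 fold change of 0.42, and Hmgcs1, which encodes the synthase that opens the pathway, 0.46. Calls of Fdft1, Insig1 and Stard4 were kept in every alternative fit. The list count was 6 and 5 without Tg2576 DHA replicates 2 and 3, 6 without WT vehicle replicates 1 or 3, and at least 8 in all other fits. Fatty acid synthesis, uptake and activation genes, in contrast, had 0 of 23 called and 1 with a p under 0.05, at a median of -0.0043, a difference between lists that was not tested.

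**Figure D2:**
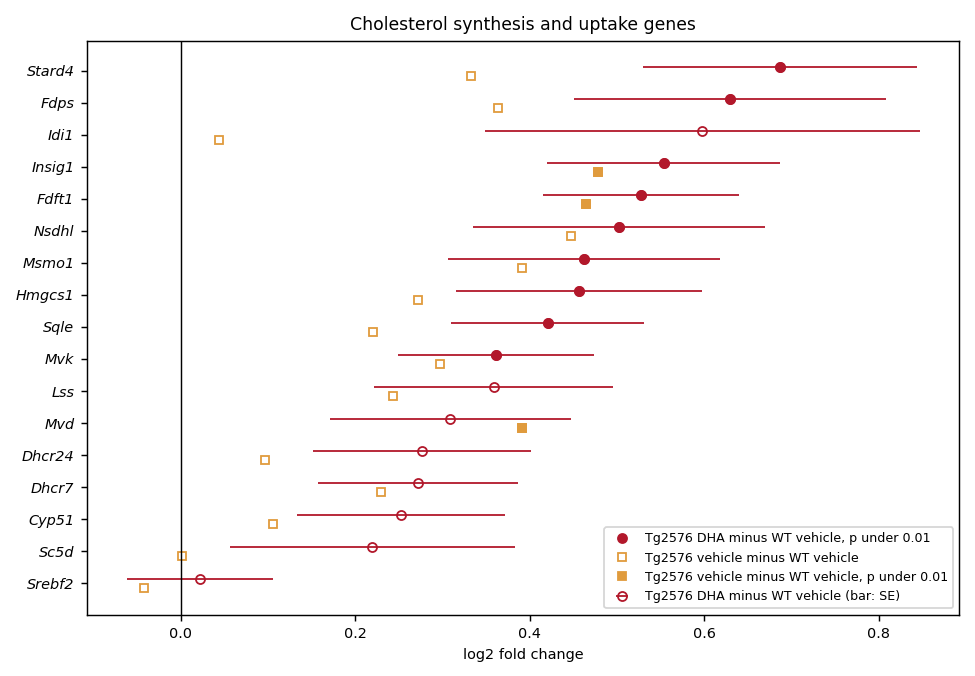
Log2 fold changes of 17 cholesterol synthesis and uptake genes for Tg2576 DHA minus WT vehicle (circles, bars show the SE) and Tg2576 vehicle minus WT vehicle (squares), filled where p was under 0.01. All 17 circles lie right of 0, and 9 are filled.

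Further genes were among the 12 of lowest p on the higher side, which were chosen from the called genes without overlap. Trhr, the receptor of thyrotropin-releasing hormone, measured 0.818, 1.93, 1.62 and 1.53 CPM in the WT vehicle mice and 4.25, 5.88 and 4.96 CPM in the treated mice. The lowest treated level was above the highest control (log2 1.79 ± 0.34, adjusted p = 0.201). The WT DHA mean of Trhr was 3.68 CPM, and against these mice the treated Tg2576 mice did not pass the threshold (adjusted p = 0.84). Endou, a uridylate-specific endoribonuclease, measured 1.03, 1.02, 0.946 and 1.29 CPM against 2.52, 2.01 and 2.44 CPM, without overlap and with 2.23 to 3.86 CPM under vehicle (log2 1.11 ± 0.24). Rab7b, a small GTPase of late endosomes, measured 1.25, 0.774, 1.22 and 0.963 CPM against 2.12, 2.01 and 3.06 CPM (log2 1.17 ± 0.27). Nxph3, the secreted neurexin ligand neurexophilin 3, measured 25.1, 29.4, 27.2 and 28.4 CPM against 50.4, 41.7 and 34.8 CPM (log2 0.62 ± 0.14). In both genes every treated mouse lay above every control. Means of the WT DHA mice were 1.9, 1.36 and 34.1 CPM for Endou, Rab7b and Nxph3. The log2 fold changes of Tg2576 DHA against WT DHA were 0.29, 0.81 and 0.31, and only that of Rab7b was called. Gm24407, a predicted gene, measured 0 to 0.12 CPM in the controls and 0.348 to 2.36 CPM in the treated mice, too low for a reliable fold.

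On the lower side, Fbxo32 had the lowest p, and it is at chr15:58175879-58214932. It encodes atrogin-1, a ubiquitin ligase known from muscle wasting. Fbxo32 measured 32.1, 28.5, 27.7 and 29.5 CPM in the WT vehicle mice and 20.5, 17.1 and 19.4 CPM in the Tg2576 DHA mice. Every treated mouse was lower than every control (log2 -0.63 ± 0.10, adjusted p = 0.0899 in edgeR). Fbxo32 was chosen from the called genes without overlap, so this separation was required by the choice. The WT DHA mice were low as well, at 19.1, 21.6, 21.2 and 22.3 CPM, and the treated Tg2576 mice differed from them by -0.15 on the log2 scale (adjusted p = 0.828). Tg2576 vehicle mice lay between, at 26.1, 23.6, 24.9 and 21.9 CPM, and the Tg2576 DHA mice were called lower than these, at a log2 fold change of -0.35 (adjusted p = 0.999).

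Plekha2, a phosphoinositide-binding adaptor, measured 35.6, 40.9, 38.2 and 38.7 CPM in the controls and 25.2, 25.5 and 24 CPM in the treated mice, without overlap (log2 -0.62 ± 0.11, adjusted p = 0.152). Jph1, a junctophilin that tethers the endoplasmic reticulum to the plasma membrane, measured 43.5, 56.6, 42.2 and 51.3 CPM against 29.4, 35.3 and 35.8 CPM. Treated mice were again all below controls (log2 -0.53 ± 0.11). The choice of genes required this separation of both Plekha2 and Jph1. Dock10, an activator of small GTPases, measured 129, 129, 107 and 102 CPM against 67.5, 82 and 90.6 CPM (log2 -0.54 ± 0.12). For these 3 genes the WT DHA means were 28.7, 36.2 and 81.7 CPM, and the log2 fold changes of Tg2576 DHA against WT DHA were -0.21, -0.11 and -0.03, none of them called. The WT vehicle mice were thus the high group in these genes, against which both Tg2576 groups and the WT DHA group lay lower by mean.

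Rtl3, a retrotransposon-derived Gag-like gene, measured 2.63, 4.16, 3.38 and 4.99 CPM against 1.3, 1.12 and 1.47 CPM (log2 -1.54 ± 0.30). Anxa11, an annexin that links RNA granules to lysosomes, measured 47.4, 55.2, 33.9 and 45.9 CPM against 25.3, 27.5 and 30.9 CPM, and Hipk4, a kinase, 86.2, 92.6, 70.8 and 83.8 against 65.8, 53.6 and 59.8 CPM. Treated mice lay below all controls in these 3 genes, as the choice of genes required. The WT DHA means of Rtl3, Anxa11 and Hipk4 were 1.69, 36.5 and 68.3 CPM. Log2 fold changes of Tg2576 DHA against WT DHA were -0.38, -0.38 and -0.19, none of them called. Camkk2, the kinase that activates CaM kinases and AMPK, measured 201, 223, 176 and 195 CPM against 141, 154 and 154 CPM (log2 -0.41 ± 0.09). The WT DHA mean of Camkk2 was 191 CPM, and the treated Tg2576 mice were lower than those mice also (log2 -0.36, adjusted p = 0.529). Rragd, a GTPase of the mTORC1 nutrient sensor, measured 98.5, 99.7, 100.1 and 95.2 CPM against 73.1, 76.8 and 80.1 CPM, and Cdon, a hedgehog co-receptor, 30.8, 32.5, 29.2 and 25 against 19.9, 24.1 and 17.2 CPM. Both were lower in every treated mouse, again as the choice of genes required, at log2 -0.36 and -0.52. Their WT DHA means were 81.8 and 24.8 CPM, and against those mice neither was called (log2 -0.09 and -0.28). Dpf3, a chromatin reader, was among the genes of lowest p under vehicle (4.09, 5.07, 5.03 and 4.43 CPM), and it measured 9.93, 13.4, 7.84 and 9.39 CPM in WT vehicle and 6.33, 5.05 and 6.78 CPM in treated mice (adjusted p = 0.505).

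**Figure D3:**
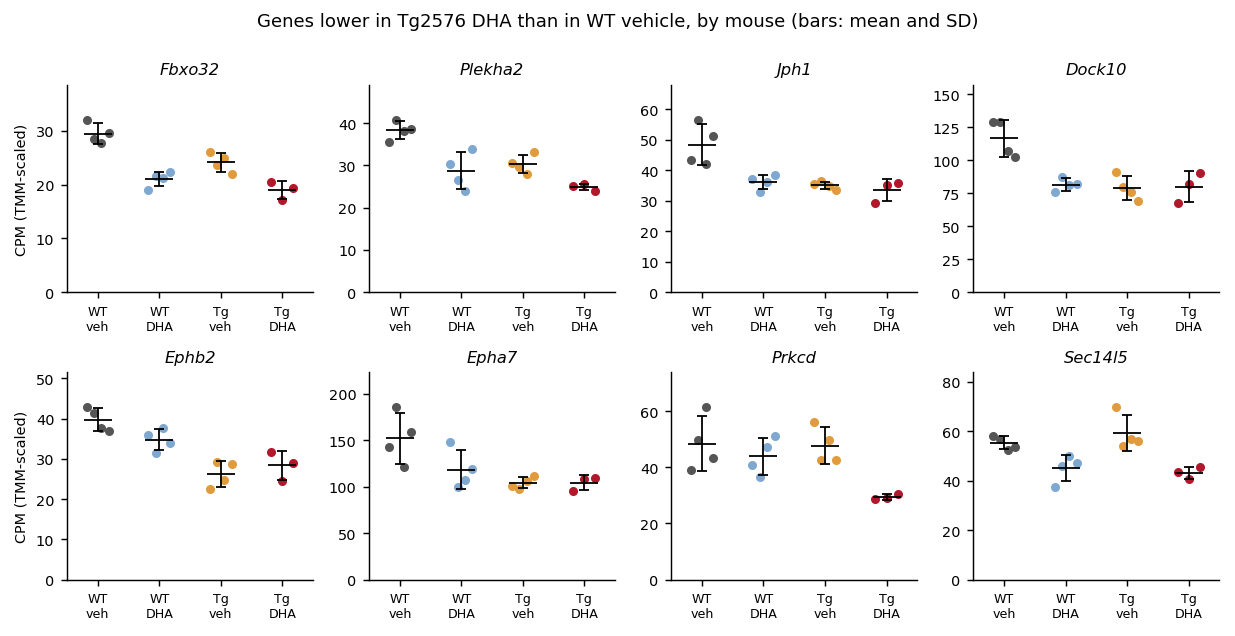
Levels (CPM after TMM scaling, each axis from 0) of 8 genes called lower in Tg2576 DHA than in WT vehicle mice, with 1 point per mouse and the mean and SD of each group. Fbxo32 is lowest in both DHA groups, Ephb2 in both Tg2576 groups, and Prkcd in the Tg2576 DHA mice alone, at 29.5 CPM on average against 48.4 CPM in WT vehicle mice.

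Postsynaptic and axon guidance genes were the function lists with the most lower calls, where 0.87% of all genes tested were called lower. Of 27 postsynaptic genes 3 were called lower and 0 higher, 24 had a negative log2 fold change, and the median was -0.19 (-0.20 under vehicle, with 5 lower). Without Tg2576 DHA replicate 1 it was -0.077, with 1 lower. Ephb2, a receptor tyrosine kinase of excitatory synapses, measured 42.9, 41.5, 37.6 and 37 CPM in the WT vehicle mice and 31.7, 24.5 and 29.1 CPM in the Tg2576 DHA mice. The groups did not overlap (log2 -0.48 ± 0.11, adjusted p = 0.434), but the call was lost with a gene length offset (log2 -0.38). Its levels under vehicle were 22.6, 29.2, 24.7 and 28.7 CPM, and the treated mice differed from them by 0.11 (adjusted p = 0.999).

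Dlg3, the scaffold SAP102, averaged 264 CPM against 218 CPM (log2 -0.27 ± 0.07, adjusted p = 0.507). Shank3, a master scaffold of the spine, measured 372, 452, 398 and 335 CPM against 266, 325 and 322 CPM (log2 -0.36 ± 0.12, adjusted p = 0.6). In both genes all treated mice were below all controls. Dlg3 lost its call without Tg2576 DHA replicate 1 (log2 -0.23) or 2 (log2 -0.25). Shank3 lost its call in 11 of 25 alternatives, with log2 -0.25 without Tg2576 DHA replicate 1. Of 28 presynaptic genes 1 was called, Unc13a, a priming factor of vesicles, with 586, 642, 504 and 541 CPM against 360.1, 454 and 491 CPM (adjusted p = 0.624). That call was lost in 17 of 25 alternatives, with log2 -0.25 without Tg2576 DHA replicate 1, and the list median was -0.0095.

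Of 30 axon guidance genes 3 were called lower and 0 higher, at a median of -0.19 (-0.29 under vehicle, with 6 lower). Lower calls made up 0.87% of all genes tested, and 81 of the 4883 longest genes. Without Tg2576 DHA replicate 1 the median was -0.049, with 2 lower and 1 higher, and without WT vehicle replicate 2 it was -0.12, with 1 lower. Epha7, an ephrin receptor, measured 143, 186, 121 and 159 CPM in controls and 94.9, 108 and 109 CPM in treated mice, without overlap (log2 -0.55 ± 0.14, adjusted p = 0.506). Sema5a, a transmembrane semaphorin, measured 112, 139, 91.6 and 113 CPM against 62.1, 87.8 and 81.9 CPM, and Unc5b, a netrin receptor, 55.9, 52.5, 56.3 and 46.7 against 43.2, 30.5 and 41 CPM. Both were lower in every treated mouse. The WT DHA means of Epha7, Sema5a and Unc5b were 118.5, 81 and 42.8 CPM. Against those mice the Tg2576 DHA log2 fold changes were -0.18, -0.07 and -0.16, none of them called. Sema5a lost its call without Tg2576 DHA replicate 1 (log2 -0.41) or WT vehicle replicate 2 (log2 -0.44), and Unc5b in 10 of 25 alternatives, with log2 -0.32 without Tg2576 DHA replicate 2. Differences moved with gene length, with median log2 fold changes of 0.054 in the 4888 shortest genes and -0.049 in the 4883 longest, and 81 of the 170 lower calls fell in the longest. The treated mice did not share this relation. The Spearman correlation of length with a mouse's deviation from the WT vehicle mean was -0.369 in Tg2576 DHA replicate 1. It was 0.132 and 0.01 in replicates 2 and 3 of that group, and -0.259 to 0.19 in the WT vehicle mice. The part of transcript length in the synaptic and guidance genes was not tested beyond the offset.

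Receptor and channel lists gave few calls, where 1.6% of all genes tested were called. Among 22 glutamate receptor genes Grm3, a presynaptic and glial metabotropic receptor, was called lower at 44.1, 39.5, 33.9 and 37.5 CPM in controls against 28.7, 24.1 and 29.7 CPM (adjusted p = 0.6), and that call was lost in 11 of 25 alternatives, with log2 -0.40 without Tg2576 DHA replicate 2. Among 15 GABA receptor genes Gabra3, the alpha 3 subunit, was called higher at 54, 48.3, 55.2 and 57.9 CPM against 65.8, 77.8 and 80.8 CPM (log2 0.47 ± 0.12). It lost the call without Tg2576 DHA replicate 3 (log2 0.41). Of the 27 function lists 12 had 0 calls in edgeR over 234 members, of which 13 had a p under 0.05 higher and 8 lower, and DESeq2 and limma-voom called 5 and 3 of them. Over all 19536 genes tested, 1.6% were called and 1236 had a p under 0.05. At that share a list without calls says little about its function. Their medians ran from -0.12 for potassium channels to 0.52 for cytokines and chemokines, with -0.096 for calcium, sodium and HCN channels, -0.083 for immediate early genes, -0.12 for interneuron genes, 0.15 for chaperones, 0.075 for nuclear respiratory chain genes and 0.067 for clock genes. Mitochondrially encoded genes had a median of 0.39 (0.53 under vehicle, and 0.23 without Tg2576 DHA replicate 3) with 4 of 12 at a p under 0.05, all higher, and mt-Co1 measured 6437 to 9509 CPM in controls and 8319 to 9225 CPM in treated mice.

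Slc7a11, the cystine transporter that feeds glutathione synthesis, was the 1 called member of 22 antioxidant genes. Its WT DHA mean was 39.9 CPM, and Tg2576 DHA mice were not called against WT DHA mice (log2 0.18). Slc7a11 measured 25.3, 23, 19.2 and 17.8 CPM in controls and 19.7, 64.6 and 51.6 CPM in treated mice, where treated mouse 1 lay within the controls, and the call was lost in 9 of 25 alternatives, with log2 0.76 without Tg2576 DHA replicate 2. Among 29 focal adhesion and matrix genes 2 were called higher, against 0.727% of all genes tested. They were Col6a1 and Col6a2, neighbouring genes for chains of collagen VI. Col6a1 measured 55.2, 40.7, 48.8 and 44.7 CPM in controls and 55.4, 125 and 81.3 CPM in treated mice, so that treated mouse 1 exceeded the highest control by little. Both calls were lost without Tg2576 DHA replicate 2 (log2 0.54 and 0.47) and with a replicate block (log2 0.82 and 0.85). The summed level of 11 meningeal fibroblast markers, none of them called, was 34.7 to 66.1 CPM in controls and 47.8 to 135 CPM in treated mice, and its part in these genes was not tested.

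**Figure D4:**
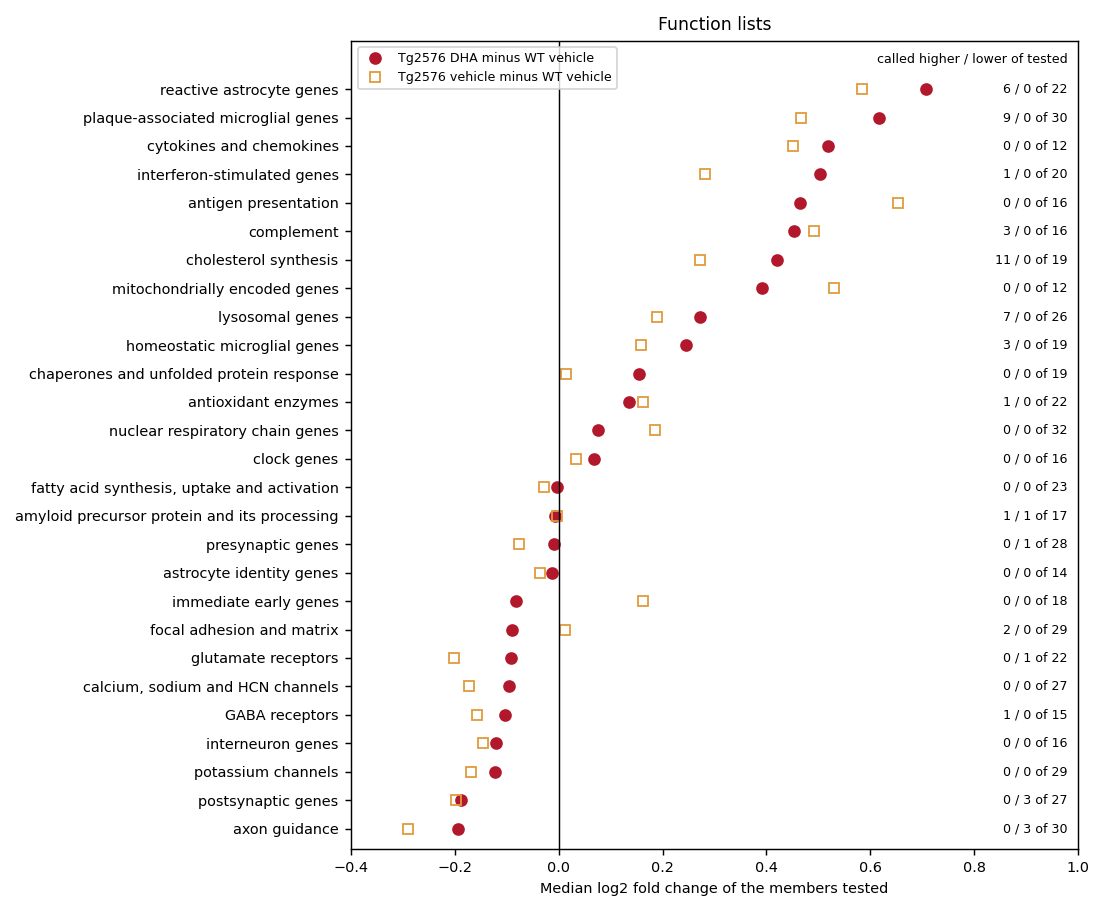
Median log2 fold change of the members tested in 27 function lists, for Tg2576 DHA minus WT vehicle (circles) and Tg2576 vehicle minus WT vehicle (squares), which share the WT vehicle mice, with the members called higher and lower at the right. Reactive astrocyte and plaque-associated microglial genes lie at the top and axon guidance genes at the bottom for the treated mice.

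Some genes were called against WT vehicle in the treated Tg2576 mice and also, or instead, against the untreated Tg2576 mice. In the latter comparison the lowest adjusted p was 0.999 in edgeR, and the 69 calls were fewer than the 195 expected if no gene differed. Prkcd, protein kinase C delta, measured 38.9, 49.8, 61.5 and 43.2 CPM in WT vehicle, 56, 42.6, 49.7 and 42.6 CPM in Tg2576 vehicle and 28.7, 29.1 and 30.6 CPM in Tg2576 DHA mice. The treated mice were below all others of these groups and close to each other. The log2 fold change was -0.71 ± 0.15 against WT vehicle (adjusted p = 0.322) and -0.69 ± 0.15 against Tg2576 vehicle (adjusted p = 0.999). WT DHA mice had a mean of 44 CPM. Prkcd is also a thalamic marker, and the other 6 thalamic markers tested had 0 calls, 1 of them with a p under 0.05, while the median of all 7 was -0.17. Against the Tg2576 vehicle mice 6 of the 7 markers, Prkcd included, were negative, at a median of -0.24. Their summed level was 69 to 72.9 CPM in Tg2576 DHA, 87.8 to 103 CPM in WT vehicle and 87 to 108.7 CPM in Tg2576 vehicle mice. The part of dissected tissue in Prkcd was not tested.

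Baiap2l1, an actin-bundling protein, measured 3.73, 0.919, 2.63 and 0.662 CPM in WT vehicle mice and 3.85, 37.5 and 26.1 CPM in the Tg2576 DHA mice. Treated mice 2 and 3 were far above, and treated mouse 1 was barely above the highest control (log2 3.46 ± 0.77, adjusted p = 0.434). Tg2576 vehicle mice measured 1.03 to 3.1 CPM. Slc12a8, a cotransporter also described as a nicotinamide mononucleotide carrier, measured 0.904, 0.87, 1.89 and 0.842 CPM in WT vehicle mice and 0.288, 0.532 and 0.31 CPM in treated mice. It was lower in each (log2 -1.55 ± 0.43, adjusted p = 0.522), and Tg2576 vehicle mice measured 1.06 to 2.16 CPM. That call was lost without Tg2576 DHA replicate 1 (log2 -1.38) or 3 (log2 -1.43) and without WT vehicle replicate 3 (log2 -1.19).

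Sec14l5, a lipid-binding SEC14 protein, measured 58, 56.8, 52.3 and 53.8 CPM in WT vehicle and 43.6, 40.5 and 45.5 CPM in Tg2576 DHA mice (log2 -0.36 ± 0.11, adjusted p = 0.569). All treated mice were below the controls, the Tg2576 vehicle mice were at 53.9 to 69.8 CPM, and the WT DHA mean was 45.2 CPM. Sspo, the secreted protein SCO-spondin, was lower in every treated mouse, at 7.84, 6.04, 5.2 and 4.84 CPM against 4.32, 3.75 and 3.45 CPM (log2 -0.64 ± 0.21, adjusted p = 0.6). Sec14l5 lost its call in 4 of 25 alternatives, all of them fits without 1 mouse, with log2 -0.30 without Tg2576 DHA replicate 2. Sspo lost its call in 9 of 25, with log2 -0.48 without WT vehicle replicate 1. The Sspo call was also lost with the length offset (log2 -0.50), unscaled library sizes (log2 -0.61) and only the 2 groups fitted (log2 -0.63).

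Cbln4, a secreted organiser of inhibitory synapses, measured 11.1, 10.3, 9.39 and 10.5 CPM in WT vehicle and 20.7, 23.6 and 14.9 CPM in treated mice (log2 0.93 ± 0.30, adjusted p = 0.6). The groups did not overlap, the WT DHA mean was 22.1 CPM, and the call was lost in 8 of 25 alternatives, with log2 0.80 without Tg2576 DHA replicate 2. Lefty2, a TGF-beta family antagonist of Nodal, measured 0.474, 1.02, 0.304 and 0.692 CPM against 1.62, 2.45 and 1.74 CPM, higher in each treated mouse at low levels (log2 1.67 ± 0.43, adjusted p = 0.506). Nr4a2, an orphan nuclear receptor, measured 56.8, 49.5, 41.8 and 53 CPM against 60.6, 73.5 and 70.3 CPM. Its groups did not overlap but the gene was not called (log2 0.44 ± 0.17), although it passed in 4 of 25 alternatives. It was called higher than in the Tg2576 vehicle mice (log2 0.60 ± 0.17, adjusted p = 0.999), and the WT DHA mean was 72.8 CPM. Prss8, a membrane serine protease, measured 0.0861, 0.29, 0.878 and 0.241 CPM against 1.08, 1.42 and 0.852 CPM, with 1 control above the lowest treated mouse (adjusted p = 0.637). Nr4a2 is also a marker of layer 6b and claustrum. Of the 7 genes of that list 4 had a positive and 3 a negative log2 fold change, and 2, Nxph4 and Cplx3, were called higher. The summed level was 85.1 to 101 CPM in WT vehicle and 112 to 131.5 CPM in Tg2576 DHA mice. Nr4a2 itself gave 41.8 to 56.8 and 60.6 to 73.5 CPM of these sums. The sum was 67.6 to 118.5 CPM in Tg2576 vehicle and 117 to 156 CPM in WT DHA mice. Nxph4, a neurexophilin, measured 1.38, 1.26, 1.96 and 1.2 CPM in WT vehicle and 3.1, 3.25 and 2.17 CPM in treated mice, and Cplx3, a complexin, 9.82, 7.54, 5.91 and 6.14 against 15.8, 11.9 and 7.59 CPM with overlap, a call lost in 17 of 25 alternatives. The part of dissected tissue in these genes was not tested.

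Markers of hippocampal neurons were present in every library, with summed levels of 679 to 929 CPM for CA1 over the 15 mice. Of 7 dentate granule cell markers 2 were called lower (0.87% of all genes tested). All 7 had a negative log2 fold change, at a median of -0.457 (-0.455 under vehicle). Without Tg2576 DHA replicate 1 there were 0 calls, at a median of -0.38. Prox1, the transcription factor that sets granule cell identity, measured 86.5, 107, 75.8 and 82.7 CPM in controls and 53.1, 66.5 and 72.5 CPM in treated mice, without overlap (log2 -0.46 ± 0.13, adjusted p = 0.531). Dsp, the desmosomal protein desmoplakin, measured 38.8, 72.1, 41.4 and 40.4 CPM against 23.1, 29.1 and 29.8 CPM, also without overlap, with the second control far above the others. Prox1 lost its call without Tg2576 DHA replicate 1 (log2 -0.32) or WT vehicle replicate 2 (log2 -0.34), and Dsp without Tg2576 DHA replicate 1 (log2 -0.69). The WT DHA mean of Prox1 was 68.3 CPM. Among 8 immature neuron genes Neurod1 was called lower (12.5, 15, 18.2 and 14 against 9.21, 10.8 and 11.5 CPM) and Sox11 higher (10.6, 12.8, 11.4 and 9.84 against 14, 15.2 and 14.9 CPM). Their WT DHA means were 13.2 and 16.8 CPM, and against those mice neither was called (log2 -0.33 and -0.19). Neurod1 lost its call without Tg2576 DHA replicate 1 (log2 -0.40) or WT vehicle replicate 3 (log2 -0.39), and Sox11 in 10 of 25 alternatives, with log2 0.35 without WT vehicle replicate 4.

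Of 16 cell type lists 12 had 0 calls in edgeR over 108 members, of which 3 had a p under 0.05 higher and 5 lower, and DESeq2 and limma-voom called 1 each. Over all 19536 genes tested, 1.6% were called and 1236 had a p under 0.05, so a short list without calls says little. Markers of CA1 pyramidal neurons and of CA2 and CA3 pyramidal neurons had medians of -0.072 and -0.16, and mature oligodendrocyte markers, at -0.27, were negative in 13 of 14. Mbp, the myelin basic protein gene, measured 3696 to 4195 CPM in controls and 2843 to 3723 CPM in treated mice (adjusted p = 0.809). Medians were -0.26 for ependyma, -0.255 for oligodendrocyte precursors, -0.035 for endothelium, 0.0012 for striatum, 0.099 for subiculum, 0.15 for neocortex, 0.54 for red blood cells and 0.56 for meningeal fibroblasts. Choroid plexus markers had the highest median of all lists, 1.08, with all 11 positive but 0 called. Their summed level was 2764, 93.4, 3772 and 175 CPM in the WT vehicle mice and 5223, 3347 and 3172 CPM in the treated mice. Ttr, transthyretin, made up most of it, with 4964, 3145 and 2908 CPM in the treated mice. Levels were high in 2 of the 4 WT vehicle and all 3 Tg2576 DHA mice, and the part of choroid plexus in the called genes was not tested.

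The same genes were read in mice that entered neither group, as Tg2576 vehicle against WT DHA, where 534 genes were called (2.73%). Of the 142 genes called higher in Tg2576 DHA against WT vehicle, 104 (73.2%) were higher in those other mice too, 45 of them called (31.7%) and 4 called the opposite way. Of the 170 called lower, 132 (77.6%) were lower in the other mice, 16 of them called (9.41%) and 2 called the opposite way. Of the 19224 genes not called, 58.6% had the same direction and 1.89% were called in it. Median log2 fold changes were 0.79 and 0.30 in the 2 sets of mice for the genes called higher, and -0.43 and -0.11 for those called lower. In the other mice, App differed by 0.51 (adjusted p = 0.0789), Gfap by 0.93 (adjusted p = 0.186) and Cst7 by 3.46 (adjusted p = 0.0789), whereas the log2 fold change was 0.20 for Fbxo32 (adjusted p = 0.552) and -0.05 for Dock10 (adjusted p = 0.946). The comparison was added after the data were seen and is a description. Genotype and DHA both change in it, but DHA runs the other way, since here the WT mice received DHA and the Tg2576 mice did not.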

How the data were processed

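Hippocampal RNA of 15 mice was sequenced, 1 library per mouse. The authors deposited raw counts per gene and library, made with STAR 2.6.1c and featureCounts 1.6.0 against GRCm38 (tools and build as in the submitters' notes and the study's methods, which name different library kits). Symbols were found for 55141 of the 55401 genes. Genes were kept by filterByExpr (minimum count 10), which left 19536. A negative binomial model with 1 coefficient per group over all 15 mice was fitted in edgeR 4.0.16 (R 4.3.3) with TMM scaling and the robust quasi-likelihood test, and p-values were adjusted by Benjamini-Hochberg over all genes tested. The unadjusted threshold of 0.01 follows the study. The biological coefficient of variation was 20.1% and TMM factors were 0.961 to 1.03. Standard errors are the log2 fold change over the square root of F. The script was tested on simulated data.

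Members and lists were chosen with earlier results of these data known. Genes named are App, all genes with an adjusted p under 0.05, the 12 of lowest p in each direction among those called without overlap, up to 3 called members of each list by p (or, with none called, the one of highest mean level), genes the study names, and up to 3 of lowest p in the comparisons of the Tg2576 groups with each other and of Tg2576 vehicle with WT vehicle. Other list members were named after their values were seen. Not every gene that the rule gives is printed, and some items are not reported here, although list counts and medians include them. Alternatives were DESeq2 1.42.0, limma-voom (limma 3.58.1), unscaled library sizes, other filters, only the 2 groups, no robust option, a replicate block, 1 surrogate variable (sva 3.50.0), a gene length offset and leaving out each mouse. Promoter sequences come from RefSeq (GRCm38.p6).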

Additional observations from a re-analysis of the deposited data

Results flagged for a closer look

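In each gene below, 1 mouse of a group of 4 lay far from the other 3 by Dixon's criterion. This held for 12 of the 174 groups tested, and chance gives about 1 in 20. In WT vehicle mice, Fdft1 measured 95.6 CPM in replicate 4 (76.7 to 79.7 in the others) and Dsp 72.1 CPM in replicate 2 (38.8 to 41.4). Slc12a8 measured 1.89 CPM in WT vehicle replicate 3 (0.842 to 0.904), B2m 86.3 CPM in replicate 4 (50.6 to 56.6), Hspa8, a constitutive chaperone, 1270.0 CPM in replicate 4 (696 to 771) and Slc1a2 3330.0 CPM in replicate 1 (2110.0 to 2150.0). In Tg2576 vehicle mice, Insig1 measured 86.7 CPM in replicate 2 (66.6 to 68.7), Cplx3 12 CPM in replicate 2 (8.77 to 8.86) and Unc13a 588 CPM in replicate 4 (428 to 453). Il1b measured 0.935 CPM in Tg2576 vehicle replicate 4 (0.43 to 0.454), Atp5b, a subunit of ATP synthase, 983 CPM in replicate 1 (1130.0 to 1150.0) and Fn1, fibronectin, 37.0 CPM in replicate 4 (63.8 to 65.0).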

How the results depend on the processing

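Of the 60 named genes called, 32 kept the call in all 25 alternatives, 28 lost it in at least 1, and 0 changed sign. The count of 312 genes called became 619 with 1 surrogate variable, and the 266 called without overlap became 403. Genes at an adjusted p under 0.05 (0 in edgeR) numbered 40 in DESeq2, 2 with no low-count filter, 5 with 1 surrogate variable, and 1 each with the replicate block and the gene length offset. The 69 genes between the Tg2576 groups became 126 in DESeq2, 126 with no low-count filter, 29 with only the 2 groups compared, 140 with 1 surrogate variable and 105 with the length offset. Correlations between Tg2576 DHA and WT vehicle mice of the same replicate number were -0.0719, 0.0926 and -0.00873. Other pairs ran from -0.166 to 0.149. So few values cannot show whether replicate numbers pair the mice. With the replicate block 307 genes were called, 236 of them without overlap. The block gave 661 for Tg2576 vehicle with WT vehicle and 54 between the Tg2576 groups. Leaving out 1 mouse at a time gave 171 to 385 genes called, 0 to 0 at an adjusted p under 0.05, 160 to 325 without overlap, 312 to 965 for Tg2576 vehicle with WT vehicle, 53 to 312 between the Tg2576 groups, and 5 to 14 cholesterol, 2 to 8 lysosomal, 2 to 9 plaque-associated and 3 to 8 reactive astrocyte members. The lowest count, 171, was that without WT vehicle replicate 2. Genes not called changed sign among the fits without 1 mouse, where log2 values were -0.0636 to 1.64 for Hbb-bs, -0.237 to 0.0702 for Slc1a2, -0.0224 to 0.304 for Cux2, -0.132 to 0.00109 for Rgs14, -0.0439 to 0.103 for Atp5b, -0.259 to 0.14 for Fn1, -0.0955 to 0.0295 for Scd2 and -0.359 to 0.256 for Foxj1. The cause was not tested.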
